A study of Arabidopsis thaliana with 16 samples.

Results

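The genes described here are BASL (AT5G60880) and POLAR (AT4G31805), whose proteins lie in the polarity crescent of dividing epidermal cells in Arabidopsis thaliana, the POLAR-like gene AT5G10890, for which no such place is claimed, and the BREVIS RADIX family, which has members in that crescent, with BRX (AT1G31880), BRXL1 (AT2G35600), BRXL2 (AT3G14000), BRXL3 (AT1G54180) and BRXL4 (AT5G20540). They were taken by locus identifier, and all 8 were found among the 33602 genes of the deposited table. Messenger RNA was sequenced from whole seedlings 7 days after germination in liquid medium with 1% sucrose, in 16 libraries that form 4 groups of 4. The groups are a homozygous line with the transgene ATML1pro:GR-SPCH1-4A-YFP, called the inducible line below, at 12 h after 100 µM dexamethasone; the same line untreated at 0 h; wild type at 12 h after the same dexamethasone; and wild type untreated at 0 h. In the transgene the ATML1 promoter, active in the outermost cell layer, drives a form of the transcription factor SPEECHLESS (SPCH) joined to the hormone-binding part of the glucocorticoid receptor, which lets the protein enter the nucleus once dexamethasone is bound. A 12 h group kept without dexamethasone was not analysed here, so within a line the agent and the elapsed time cannot be told apart; the sources used here do not give whether the inducible line stems from 1 insertion. Since whole seedlings were used, a change in the number of cells of a type cannot be told apart from a change in RNA per cell.

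SPCH starts the stomatal lineage, in which a protodermal cell divides unequally into a small cell that goes on in the lineage and a larger sister. BASL, a plant-specific protein, forms a crescent at the cell cortex of the dividing cell and passes to the larger daughter, where it holds a mitogen-activated protein kinase cascade. POLAR lies in the same crescent and brings kinases of the BIN2 type there, while BRX family proteins attach the crescent to the plasma membrane and depend on BASL for their own polar position. BRX itself was first known from root growth and from the developing protophloem. AT5G10890 is annotated as a myosin heavy chain-like protein and was listed beside POLAR as a POLAR-like gene.

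On the TAIR10 chromosomes, counted from 1 as annotated by RefSeq in TAIR10.1, BASL lies on the minus strand of chromosome 5 from 24488289 to 24489836 and encodes 262 residues. POLAR lies on the plus strand of chromosome 4 from 15385280 to 15387097 (344 residues) and AT5G10890 on the minus strand of chromosome 5 from 3433742 to 3435287 (334 residues). BRX lies on the plus strand of chromosome 1 from 11445490 to 11450232, BRXL3 on the plus strand of chromosome 1 from 20227168 to 20230237, and BRXL4 on the plus strand of chromosome 5 from 6947789 to 6952038. BRXL1 lies on the minus strand of chromosome 2 from 14940774 to 14945357 and BRXL2 on the minus strand of chromosome 3 from 4630865 to 4634081. The annotated POLAR and AT5G10890 proteins were identical at 105 aligned residues, 31.4% of the shorter one, whereas BASL matched POLAR at 22.5% and AT5G10890 at 21.4% of its own residues. Within the BRX family, BRX and BRXL1 shared 82.2% and BRXL2 and BRXL3 73.5% of residues, and the other 8 pairs shared between 45.8% and 60.4%. The longest run of bases that any pair of family transcripts had in common was 34 bases, between BRXL2 and BRXL3, and 26 bases between BRX and BRXL1. The sources used here do not give how reads with several alignments were counted, and the values of these close pairs carry that uncertainty.

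The windows around the start sites of the 3 genes that rose together are shown here from the TAIR10.1 genome, each with 250 bases before the annotated transcript start and 50 after it, in the direction of transcription. Capitals mark matches, on either strand, to the E-box CANNTG or to CTCGTG, and the first base of the transcript is position 1, with no position 0.
BASL (chr5:24489787-24490086, minus strand): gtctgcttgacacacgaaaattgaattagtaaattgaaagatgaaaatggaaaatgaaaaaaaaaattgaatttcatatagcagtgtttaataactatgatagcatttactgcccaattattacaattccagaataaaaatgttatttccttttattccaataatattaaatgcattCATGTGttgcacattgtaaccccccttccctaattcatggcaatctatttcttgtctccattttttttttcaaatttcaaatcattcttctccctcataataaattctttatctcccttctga
POLAR (chr4:15385030-15385329, plus strand): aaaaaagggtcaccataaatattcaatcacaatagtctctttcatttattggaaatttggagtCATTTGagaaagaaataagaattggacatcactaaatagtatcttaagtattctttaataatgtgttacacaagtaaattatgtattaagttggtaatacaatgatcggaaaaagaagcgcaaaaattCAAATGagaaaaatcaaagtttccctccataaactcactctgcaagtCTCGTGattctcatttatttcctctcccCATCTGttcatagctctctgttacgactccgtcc
AT5G10890 (chr5:3435238-3435537, minus strand): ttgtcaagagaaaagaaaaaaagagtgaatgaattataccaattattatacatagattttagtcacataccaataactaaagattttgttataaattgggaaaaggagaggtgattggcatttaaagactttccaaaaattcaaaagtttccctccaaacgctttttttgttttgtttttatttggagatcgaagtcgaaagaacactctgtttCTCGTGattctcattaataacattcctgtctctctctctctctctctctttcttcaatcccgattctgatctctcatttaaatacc
The search covered the E-box, which the basic helix-loop-helix family of SPCH binds in general, and the related CACGTG (itself an E-box), CGCGTG and CTCGTG, on both strands. BASL had 1 E-box, CATGTG, with its first base at position -73. POLAR had 3, at -187, -59 and 17, and AT5G10890 had none. CTCGTG occurred at -12 in POLAR and at -36 in AT5G10890, and no window of the 8 genes held CACGTG or CGCGTG. Among the BRX family, BRXL2 had 3 E-boxes, BRXL1 and BRXL3 had 1 each, and BRX and BRXL4 had none. Of 27443 windows of the same length at protein-coding genes, 61.7% held an E-box, 7.68% CACGTG, 3.16% CGCGTG and 5.18% CTCGTG. The number of E-boxes did not separate the genes that rose from those that did not.

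The CTCGTG of POLAR and of AT5G10890 lay inside a longer stretch that both windows share, which was found by comparing the 3 printed windows with each other. The stretch of 16 bases, TCTCGTGATTCTCATT, begins at -13 in POLAR and at -37 in AT5G10890, and on both strands of all 27443 windows it occurred in these 2 alone. A second shared stretch of 14 bases, AAAGTTTCCCTCCA, begins at -44 in POLAR and at -107 in AT5G10890 and occurred in 3 windows. The last, of 12 bases, CAAAAATTCAAA, begins at -67 in POLAR and at -117 in AT5G10890 and occurred in 40 windows. The order in which the 3 stretches begin along the window is the same in both genes. In AT5G10890 the stretch of 12 bases overlaps the start of the stretch of 14 bases, whereas in POLAR they lie apart. Between BASL and AT5G10890 the longest shared run was 10 bases, found in 84 windows. These matches describe the letters of the windows, and binding was not measured in these libraries.

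**Figure D1:**
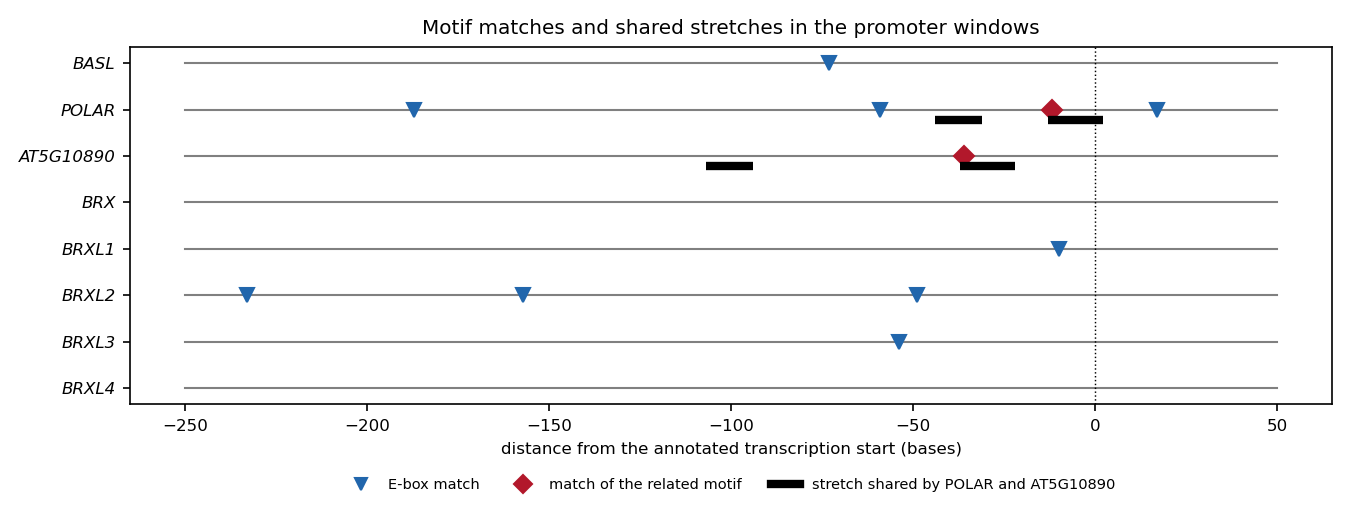
Position of motif matches in the windows of the 8 genes, as distance from the annotated transcript start in bases (horizontal axis, 250 before to 50 after). Triangles mark E-boxes, diamonds the related motif, and black bars the 16-base and 14-base stretches that POLAR and AT5G10890 share; both shared stretches lie closer to the start in POLAR than in AT5G10890.

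Values are read counts per gene that the authors divided by 1 size factor per library, called normalized counts here. The libraries held 16251477 to 22944391 reads in genes, and a count of 0 allows up to 3 reads, or 1.8e-05% of the smallest library, by counting error alone. SPCH, whose counts can include reads of the transgene, averaged 199.8 ± 31.6 normalized counts in the inducible line at 12 h and 65.7 ± 5.73 in wild type at 12 h, and 139.6 ± 16.2 in the inducible line at 0 h and 63.4 ± 6.26 in wild type at 0 h (SD, n = 4 each). Replicates 1 and 2 of each group shared a sequencing lane and replicates 3 and 4 another. Mitochondrial genes took 0.00706% to 0.0182% of reads in the first lane and 0.0169% to 0.0531% in the second, and chloroplast genes 0.348% to 0.943% over both.

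BASL, POLAR and AT5G10890 were each several-fold higher in the inducible line after 12 h of dexamethasone than in any other group, and no BRX family gene passed the same test in any of the 5 comparisons. The first comparison asks by how much the 12 h change of a transcript in the inducible line exceeded its change in treated wild type, and is called the line-by-time difference. It was tested with limma on log2(normalized count + 1), with p-values adjusted by the Benjamini-Hochberg method over the 20756 genes with 10 or more normalized counts in 4 or more libraries; all 8 genes passed this filter. A gene is said to have risen or fallen at an adjusted p under 0.05, and folds are on the log2(normalized count + 1) scale, on which changes of weakly expressed genes come out too small. Of the 8 genes 3 rose and none fell, where 0.511% of all tested genes passed in either direction and 0.0964% rose. The median log2 difference was 0.41 over the 8 genes and -0.0025 over all tested genes.

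BASL, without which the lineage loses the inequality of its divisions, had 179, 213, 165 and 281 normalized counts in the 4 inducible-line libraries at 12 h and 33.5, 39.1, 60.8 and 51.0 in those at 0 h. In wild type it had 20.4, 56.2, 43.2 and 47.7 at 12 h and 27.4, 50.2, 57.7 and 61.6 at 0 h. All 4 induced libraries stood far above the other 12, which overlapped one another. The means were 209.5 ± 51.9, 46.1 ± 12.2, 41.9 ± 15.3 and 49.2 ± 15.3 in the same order (SD, n = 4 each). BASL rose 5.36-fold beyond wild type (log2 difference 2.42, SE 0.44, 95% interval 1.49 to 3.35, limma adjusted p = 0.0171), which gave it rank 5 by log2 difference among all tested genes. In libraries of replicate 1, BASL was the lowest of its group in 3 of the 4 groups.

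POLAR, whose crescent appears before the unequal division, had 509, 563, 413 and 582 normalized counts in the inducible line at 12 h and 169, 154, 199 and 146 at 0 h. In wild type its counts were 127, 153, 122 and 132 at 12 h and 137, 174, 137 and 168 at 0 h. The induced libraries again did not overlap any other group, and the relative spread within each group (SD over mean) was smaller than for BASL. Group means were 517 ± 76.1, 167 ± 23.2, 133 ± 13.95 and 154 ± 19.8 in the same order. POLAR rose 3.54-fold beyond wild type (log2 difference 1.82, SE 0.21, 95% interval 1.39 to 2.26, limma adjusted p = 2.8e-04). The last 310 of the 1531 exonic bases of POLAR overlap AT4G31810 on the opposite strand, and without a stated strand setting of the counting, reads there cannot be assigned to either gene. AT4G31810 averaged 852 ± 64.1 normalized counts in the inducible line at 12 h and 896 ± 112 at 0 h, and 646 ± 67.6 in wild type at 12 h and 786 ± 167 at 0 h.

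AT5G10890, the gene with the POLAR-like protein, had 173, 131, 109 and 163 normalized counts in the inducible line at 12 h and 21.0, 31.4, 36.3 and 34.6 at 0 h. Wild-type libraries had 35.2, 41.9, 43.2 and 26.2 at 12 h and 40.0, 24.3, 29.9 and 47.8 at 0 h. The lowest induced library held more than any library of the other groups, as for BASL and POLAR. The means were 144 ± 29.1, 30.8 ± 6.87, 36.6 ± 7.80 and 35.5 ± 10.5 in the same order. It rose 4.38-fold beyond wild type (log2 difference 2.13, SE 0.35, 95% interval 1.39 to 2.88, limma adjusted p = 0.0106). Its overlap with AT5G10880 on the opposite strand covers 126 of its 1396 exonic bases, and that neighbour averaged 11.7 ± 14.2 normalized counts in the inducible line at 12 h, 2.43 ± 2.85 at 0 h, 1.94 ± 2.24 in wild type at 12 h and 1.07 ± 1.51 at 0 h.

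In lane 1 alone, with 2 libraries per group, none of the 3 rises of the line-by-time difference passed, although the log2 differences were 2.52 for BASL (adjusted p = 0.409), 1.87 for POLAR (0.133) and 2.21 for AT5G10890 (0.354). In lane 2 alone BASL had 2.32 (adjusted p = 0.0275), POLAR 1.78 (0.0308) and AT5G10890 2.05, where the last missed the threshold (0.0792).

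**Figure D2:**
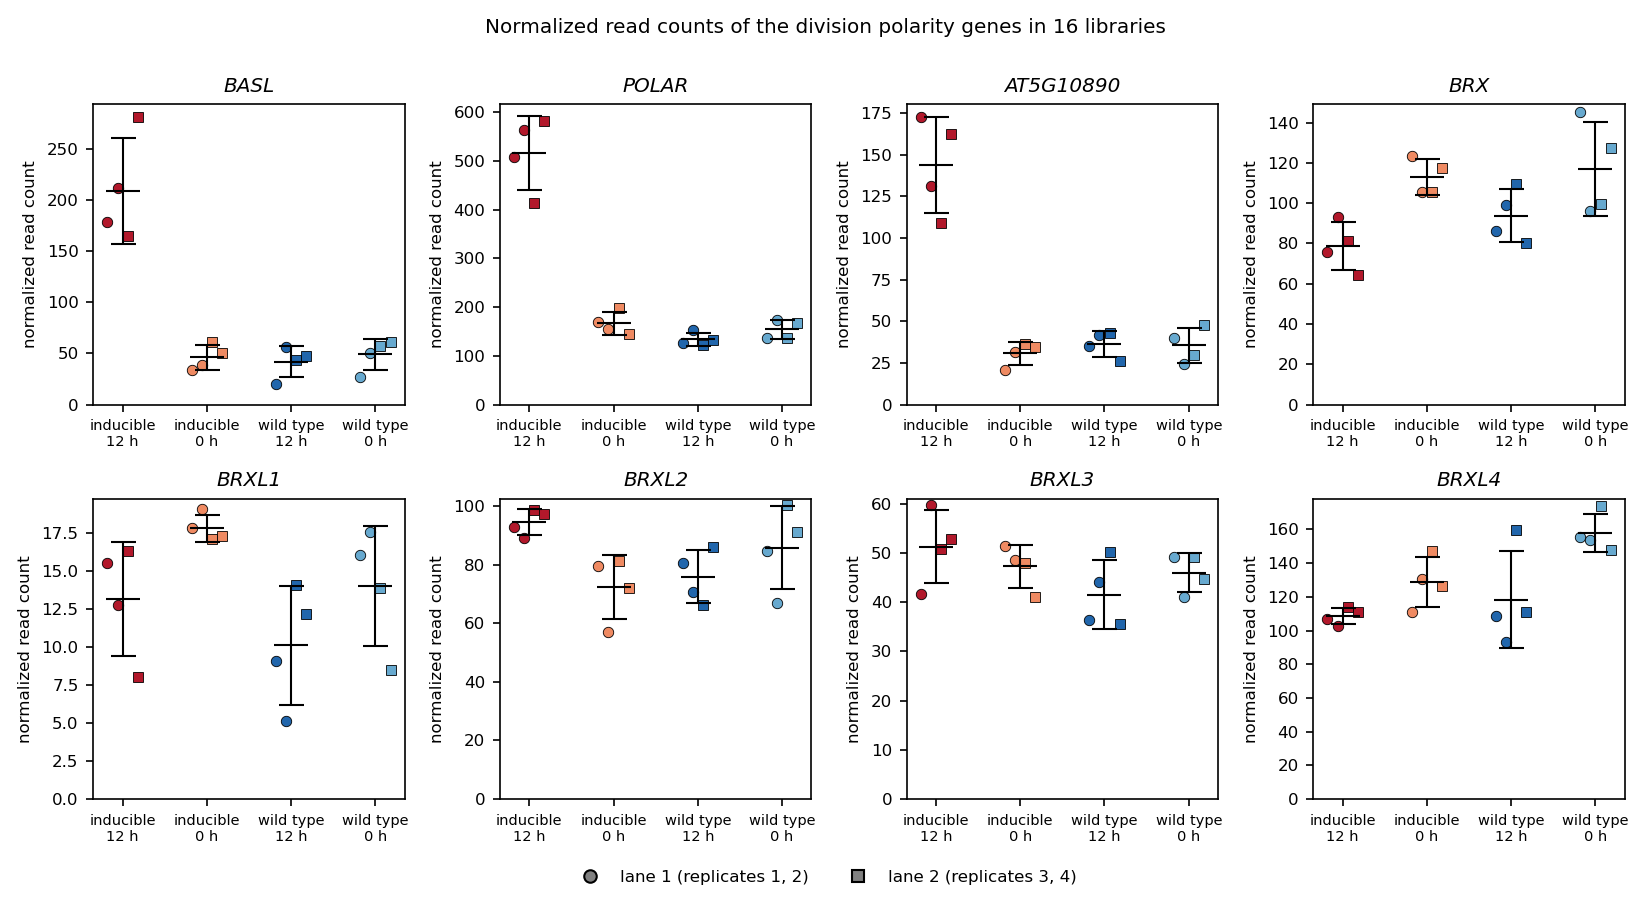
Normalized counts (vertical axes, each from 0) of the 8 genes in each of the 16 libraries, by group. Circles are lane 1 and squares lane 2, and the bars show the mean ± SD of 4 libraries; BASL, POLAR and AT5G10890 stand apart in the inducible line at 12 h, by more than any BRX family gene.

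The 2 comparisons that make up this difference separate the induced libraries from their own start and from treated wild type. Over the 12 h in the inducible line the same 3 of 8 genes rose, where 5.12% of all genes passed and 1.44% rose. BASL rose 4.49-fold (log2 difference 2.17, SE 0.31, limma adjusted p = 3.3e-04), POLAR 3.08-fold (1.62, SE 0.15, adjusted p = 2.6e-06) and AT5G10890 4.57-fold (2.19, SE 0.25, adjusted p = 3.3e-05). At 12 h the 3 genes were also higher in the inducible line than in wild type, and these comparisons share the induced libraries, so they are not separate evidence. There, BASL was 5.11-fold higher (log2 difference 2.35, SE 0.31, limma adjusted p = 2.3e-04), POLAR 3.83-fold (1.94, SE 0.15, adjusted p = 7.4e-07) and AT5G10890 3.86-fold (1.95, SE 0.25, adjusted p = 1.7e-04), with 3.40% of all genes passing and 1.20% higher. For each of the 3 genes and both comparisons the 2-sided exact permutation test gave 0.0286, the smallest p that 4 against 4 libraries allow. All 6 of these calls stood in each lane alone.

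Wild type, which received dexamethasone without the transgene, showed no rise of these genes. Over its 12 h the log2 change was -0.26 for BASL (95% interval -0.91 to 0.40, limma adjusted p = 0.708), -0.20 for POLAR (-0.51 to 0.10, adjusted p = 0.475) and 0.06 for AT5G10890 (-0.46 to 0.59, adjusted p = 0.927). None of the 8 genes passed after adjustment in limma, edgeR or DESeq2, where 4.72% of all genes passed in limma, 978 genes in edgeR and 1808 in DESeq2. Of the 8 genes 1 had an unadjusted limma p under 0.05. The groups overlapped for all 8 genes, against 9.23% of all genes whose wild-type groups did not overlap. Before treatment none of the 8 genes passed between the lines after adjustment by limma, edgeR or DESeq2. Of all genes 1.99% passed there in limma, 411 genes in edgeR and 1360 in DESeq2. At an unadjusted limma p under 0.05 the count was 0 of the 8 genes. At 0 h the log2 difference between the inducible line and wild type was -0.07 for BASL (95% interval -0.72 to 0.59), 0.11 for POLAR (-0.19 to 0.42) and -0.18 for AT5G10890 (-0.71 to 0.35), while SPCH was 2.18-fold higher in the inducible line (log2 difference 1.12, SE 0.15, limma adjusted p = 0.0020).

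**Figure D3:**
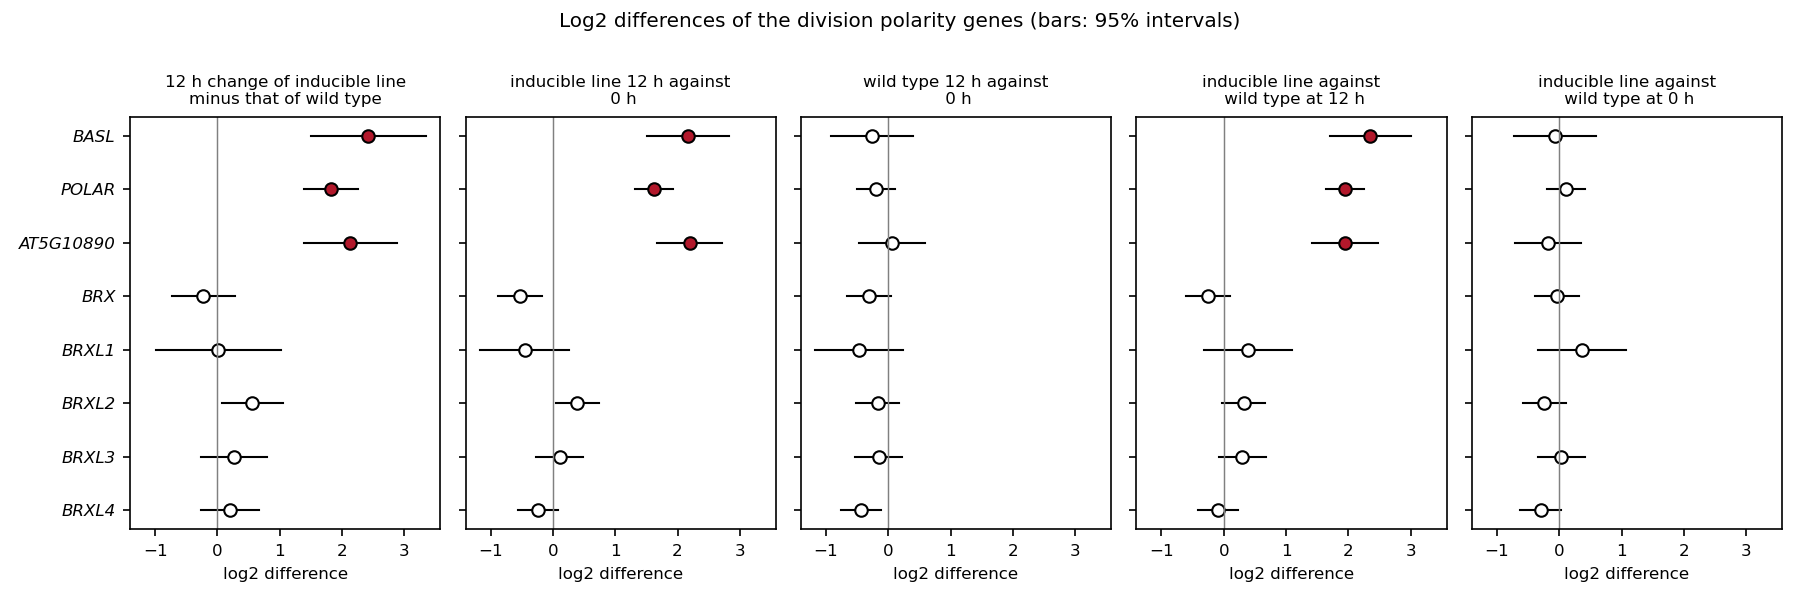
Log2 differences of the 8 genes with 95% intervals (horizontal axes) in the 5 comparisons, each named above its panel. Filled points passed an adjusted p of 0.05 in limma; they are BASL, POLAR and AT5G10890 in the 3 panels that involve induction, between 1.62 and 2.42.

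How far the 3 genes kept the same proportions was read within each library, as the difference between 2 genes in log2(normalized count + 1), called their log2 ratio here. The mean log2 ratio of BASL to POLAR was -1.32 ± 0.19 in the inducible line at 12 h and -1.86 ± 0.35 at 0 h, a difference of 0.54 (exact permutation p = 0.0571, adjusted p = 0.343 over 12 ratio comparisons). POLAR to AT5G10890 was 1.85 ± 0.22 at 12 h and 2.42 ± 0.39 at 0 h in the same line, a difference of -0.57 (exact permutation p = 0.0571, adjusted p = 0.343). BASL to AT5G10890 was 0.53 ± 0.33 at 12 h and 0.56 ± 0.19 at 0 h, which differed by less than the spread between libraries (exact permutation p = 0.886). Paired by replicate number, an alternative chosen after seeing the data, BASL to POLAR changed by 0.80, 0.55, 0.37 and 0.45 in the inducible line, higher at 12 h in 4 of 4 pairs. Within a lane these pairs follow the label alone, since 2 of the 16 libraries correlated best with their own replicate number. POLAR to AT5G10890 changed by -1.40, -0.17, -0.51 and -0.21, lower at 12 h in all 4 pairs. For each of these changes the exact sign-flip p was 0.125, the smallest that 4 pairs allow (adjusted p = 0.375 over the 12 comparisons). None of the 12 comparisons of ratios passed after adjustment in the unpaired test, and the paired test cannot reach 0.05 with 4 pairs.

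BRX family genes link the crescent to the membrane, and 5 of them were measured. BRX had 75.6, 93.1, 81.4 and 64.3 normalized counts in the inducible line at 12 h and 124, 106, 106 and 117 at 0 h, against 86.2, 99.2, 109 and 80.4 in wild type at 12 h and 145, 96.3, 99.4 and 127 at 0 h. Its inducible-line libraries at 12 h all lay under those at 0 h (log2 difference -0.53, 95% interval -0.88 to -0.17, exact permutation p = 0.0286, limma adjusted p = 0.086). That difference passed with a lane term in the fit (adjusted p = 0.0489). In wild type the corresponding log2 difference was -0.31 (95% interval -0.66 to 0.05, limma adjusted p = 0.328), and the line-by-time difference was -0.22 (-0.72 to 0.28, limma adjusted p = 0.780).

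BRXL2, which with BRX family relatives acts in the stomatal lineage, was the member of the family with the largest line-by-time difference. It had 93.0, 89.2, 98.7 and 97.4 normalized counts in the inducible line at 12 h and 79.7, 57.2, 81.1 and 71.9 at 0 h, against 80.5, 70.6, 66.3 and 86.0 in wild type at 12 h and 84.6, 66.96, 100.4 and 91.3 at 0 h. The 4 induced libraries lay within a narrow range above the other inducible-line libraries and above treated wild type, and inside the range of untreated wild type. The line-by-time log2 difference was 0.56 (SE 0.23, 95% interval 0.07 to 1.05, limma adjusted p = 0.360). In the inducible line the 12 h difference was 0.39 (limma adjusted p = 0.230, exact permutation p = 0.0286), and between the lines at 12 h it was 0.32 (limma adjusted p = 0.413, exact permutation p = 0.0286).

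BRXL4 had 107, 103, 114 and 111 normalized counts in the inducible line at 12 h and 111, 131, 147 and 126 at 0 h, against 109, 93.1, 160 and 111 in wild type at 12 h and 156, 154, 174 and 148 at 0 h. All 4 untreated inducible-line libraries lay below all 4 of untreated wild type, its highest group, by a narrow margin (log2 difference -0.29 for the inducible line against wild type, exact permutation p = 0.0286, limma adjusted p = 0.314). In wild type the 12 h log2 difference was -0.44 (95% interval -0.77 to -0.11, limma adjusted p = 0.112, exact permutation p = 0.114). Replicate 3 of treated wild type lay above the other libraries of its group, and without it that difference passed (adjusted p = 0.0251), as it did with the replicate number as a block (0.0404) or a lane term (0.0411). In those fits 1 of the 8 genes passed in wild type over time, against 13.3% of all genes with the block and 14.5% with the lane term, so that the count lies near the share over all genes. The line-by-time difference was 0.20 (95% interval -0.26 to 0.66, limma adjusted p = 0.787).

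The remaining family genes gave smaller or less precise values. BRXL3 ranged from 41.7 to 59.8 normalized counts in the inducible line at 12 h, 40.9 to 51.4 at 0 h, 35.5 to 50.2 in wild type at 12 h and 41.0 to 49.2 at 0 h, and its line-by-time log2 difference was 0.26 (95% interval -0.27 to 0.79, limma adjusted p = 0.747). BRXL1 was the weakest, with means of 13.1 ± 3.73 in the inducible line at 12 h, 17.8 ± 0.886 at 0 h, 10.1 ± 3.91 in wild type at 12 h and 13.99 ± 3.97 at 0 h. It rested on 5 to 21 reads per library, for which counting error alone gives a coefficient of variation of 23.6% to 31.6%. Its line-by-time log2 difference was 0.01 with a 95% interval of -0.99 to 1.01 (limma adjusted p = 0.997), so changes within that interval are not excluded. The interval is not adjusted for the 20756 genes tested and gives no limit of detection.

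Where the groups did not overlap for a family gene, that has to be read against how often it happened in the whole table. In the inducible line over time 6 of the 8 genes had groups that did not overlap (BASL, POLAR, AT5G10890 and BRXL2 higher, BRX and BRXL1 lower), as did 13.0% of all genes. Between the lines at 12 h there were 4 of 8, namely the 3 that rose and BRXL2, where 9.65% of all genes did not overlap. Between the lines at 0 h it was 1 of 8, BRXL4, beside 8.53% of all genes. The gap of BRXL1 over time in the inducible line was narrow, from at most 16.3 normalized counts at 12 h to at least 17.1 at 0 h. Its undivided reads overlapped, with 9 to 17 at 12 h and 16 to 20 at 0 h (log2 difference -0.45, limma adjusted p = 0.615).

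The summed level of the BRX family was lower at 12 h than at 0 h in both lines, without passing after adjustment. Summed per kb of coding length, their level was 310.2 ± 14.3 in the inducible line at 12 h and 341 ± 14.1 at 0 h (exact permutation p = 0.0286, adjusted p = 0.229 over 24 family comparisons), and 304 ± 36.2 in wild type at 12 h and 377 ± 29.3 at 0 h (exact permutation p = 0.0571, adjusted p = 0.229). BRXL2 made up 27.1% ± 1.85 of that sum in the inducible line at 12 h and 18.8% ± 2.21 at 0 h, against 22.5% ± 4.33 in wild type at 12 h and 20.2% ± 2.45 at 0 h. BRX made up 23.5% ± 2.79 in the inducible line at 12 h and 30.8% ± 2.59 at 0 h, against 28.7% ± 3.05 in wild type at 12 h and 28.7% ± 4.44 at 0 h. Both shares had non-overlapping inducible-line groups (exact permutation p = 0.0286 each), and none of the 24 comparisons passed after adjustment, the smallest adjusted p being 0.229.

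Levels of different genes were set beside each other per kb of coding length. In the inducible line at 12 h the order was POLAR (499 ± 73.5), BASL (266 ± 65.8), AT5G10890 (143 ± 28.9), BRXL4 (94.0 ± 4.20), BRXL2 (84.0 ± 3.85), BRX (73.0 ± 11.1), BRXL3 (46.0 ± 6.69) and BRXL1 (13.2 ± 3.74), where BRXL2 and BRX alone did not differ beyond their SDs. At 0 h in the same line POLAR (161 ± 22.4) led, followed by BRXL4 (112 ± 12.9) and BRX (105 ± 8.30), which overlapped within their SDs, and then by BRXL2 (64.4 ± 9.75), BASL (58.4 ± 15.5) and BRXL3 (42.4 ± 3.98), where each overlapped the next. AT5G10890 (30.7 ± 6.84) and BRXL1 (17.9 ± 0.890) came last. BASL and AT5G10890 thus held rank 2 and rank 3 at 12 h, against rank 5 and rank 7 at 0 h.

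Wild type gave the same order at both times. At 12 h it was POLAR (129 ± 13.5), BRXL4 (102 ± 24.9), BRX (87.1 ± 12.1), BRXL2 (67.4 ± 8.02), BASL (53.1 ± 19.4), BRXL3 (37.3 ± 6.25), AT5G10890 (36.4 ± 7.76) and BRXL1 (10.1 ± 3.92). At 0 h the values were 149 ± 19.1 for POLAR, 137 ± 9.90 for BRXL4, 109 ± 21.7 for BRX, 76.3 ± 12.6 for BRXL2, 62.4 ± 19.4 for BASL, 41.3 ± 3.55 for BRXL3, 35.3 ± 10.4 for AT5G10890 and 14.05 ± 3.98 for BRXL1. In both wild-type groups each gene overlapped the next within SDs, except that AT5G10890 stood above BRXL1. POLAR was first and BRXL1 last in all 4 groups also per kb of gene span and per kb of the longest transcript, while ranks between them moved with the length used.

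**Figure D4:**
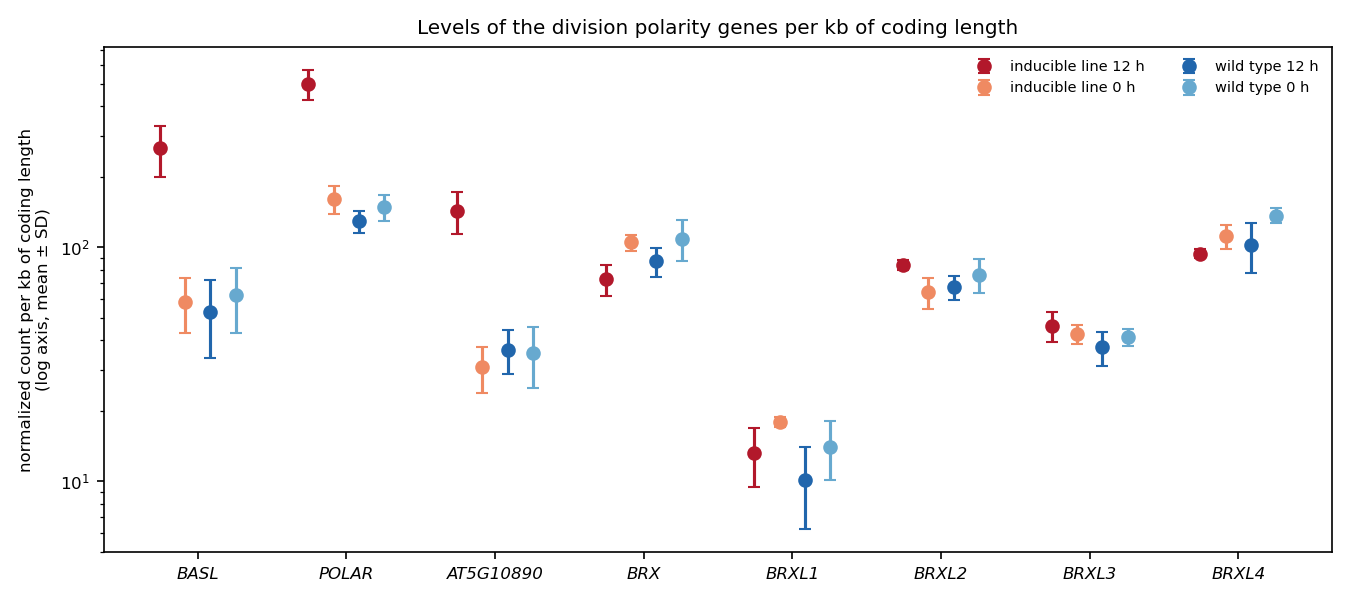
Levels of the 8 genes per kb of coding length (log axis, mean ± SD, n = 4 libraries) in the 4 groups. The first point of BASL, POLAR and AT5G10890, the inducible line at 12 h, lies above the other 3 points, which overlap, and the BRX family points lie close together for each gene.

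Likeness between genes was measured as the root-mean-square difference of log2(normalized count + 1) over the 16 libraries, after each gene was centred on its own mean; it is a description and includes deviations that genes share within a library. BASL and POLAR differed by 0.41, BASL and AT5G10890 by 0.49, and POLAR and AT5G10890 by 0.40 on this log2 scale. Each of the 3 differed from the BRX family genes by 0.70 to 1.25, and the family genes differed among themselves by 0.27 to 0.56. The measure is not scaled to the spread of a gene, so genes that change little come out close even where their directions differ. BRX and BRXL2 differed by 0.43, with log2 differences of -0.53 and 0.39 over time in the inducible line. Of 20748 other tested genes, POLAR came closest to AT1G12845, at 0.14, where its median over all genes was 0.84. AT1G12845 averaged 586 ± 80.9 normalized counts in the inducible line at 12 h and 199 ± 19.1 at 0 h, and 174 ± 30.3 in wild type at 12 h and 177 ± 20.05 at 0 h. Next for POLAR were ATMYC1 (AT4G00480), a basic helix-loop-helix gene, at 0.32 and AT3G14760 at 0.33.

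BASL and AT5G10890 had the same nearest gene, TMM (AT1G80080), the receptor-like protein that takes part in stomatal spacing, at 0.41 from BASL and 0.35 from AT5G10890. TMM averaged 1351 ± 106 normalized counts in the inducible line at 12 h and 286 ± 21.4 at 0 h, and 238 ± 10.8 in wild type at 12 h and 256 ± 51.4 at 0 h. AT1G12845 was second for both, at 0.42 from BASL and 0.44 from AT5G10890. Next were AT1G33930 for BASL (0.45) and AT3G14760 for AT5G10890 (0.47), where the medians over all genes were 1.08 for BASL and 0.99 for AT5G10890.

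**Figure D5:**
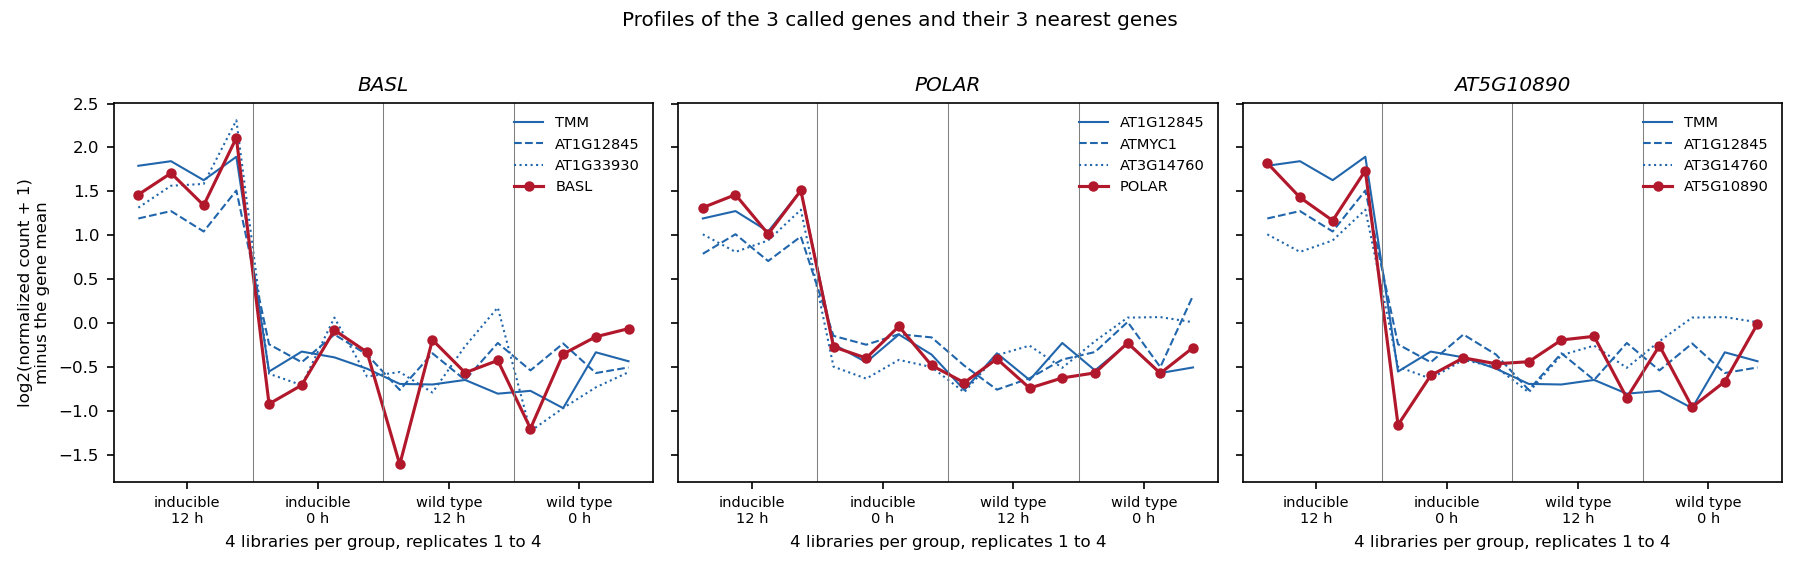
Centred log2(normalized count + 1) of BASL, POLAR and AT5G10890 (points) and of the 3 genes nearest to each (lines) in the 16 libraries, grouped as on the horizontal axis; lines join the libraries of a gene and carry no order. AT1G12845 runs closest to POLAR, at a root-mean-square difference of 0.14.

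Among 15 genes of stomatal lineage entry and progression, 4 rose in the line-by-time difference and none fell, where 0.0964% of all tested genes rose. The median log2 difference over the 15 was 0.36, and 12 of them were positive. The other 11 did not pass, among them FAMA (0.19, limma adjusted p = 0.769), MUTE (-0.59, adjusted p = 0.618) and EPF1 (-0.38, adjusted p = 0.894). The 4 that rose included EPF2, a secreted peptide that limits entry (3.11, limma adjusted p = 8.0e-04), and TMM (2.32, adjusted p = 8.6e-06). The others were the partners of SPCH named ICE1 (1.07, adjusted p = 0.0010) and SCRM2 (1.02, adjusted p = 0.0104). Over the 12 h ICE1 changed by 0.71 in the inducible line (limma adjusted p = 1.5e-04) and by -0.35 in wild type (adjusted p = 0.0415). SCRM2 changed by 0.71 (adjusted p = 0.0011) and by -0.31 (adjusted p = 0.144). By the line-by-time difference BASL lay just above TMM, and AT5G10890 and POLAR between TMM and ICE1. Between the lines at 12 h 6 of the 15 were higher, ERL1 (1.20, limma adjusted p = 0.0016) and SPCH among them, where 1.20% of all tested genes were higher. By contrast, of 12 kinases and phosphatases that meet BASL or POLAR at the cortex, none passed in any of the 5 comparisons, with a median of -0.05 in the line-by-time difference. At an unadjusted limma p under 0.05 the count was 3 between the lines at 0 h, 1 over time in the inducible line and 0 in the other comparisons, and edgeR and DESeq2 called 0 in all 5 after adjustment. Those with the smallest adjusted p there were MPK3, a mitogen-activated protein kinase (-0.43, limma adjusted p = 0.515), BIL1, a kinase of the BIN2 type (-0.30, adjusted p = 0.628), MKK5, a kinase above MPK3 (0.20, adjusted p = 0.676), and YDA, the head of that cascade (0.20, adjusted p = 0.732).

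Of 12 genes for other polarly localized proteins 11 were tested, and none passed in the line-by-time difference (median -0.07). AT5G10150 fell over the 12 h in both the inducible line (log2 difference -1.0, limma adjusted p = 8.3e-04) and wild type (-0.62, adjusted p = 0.0343), and of PIN3 and PIN7, the auxin carriers, PIN3 had -0.34 (adjusted p = 0.617) and PIN7 -0.34 (adjusted p = 0.710) in the line-by-time difference. AT5G59790 had 0.54 (adjusted p = 0.453). Of 10 phloem genes, from the tissue for which BRX is best known, none passed in the line-by-time difference (median 0.09), and SUC2, a sucrose carrier of phloem, rose over time in the inducible line (0.69, limma adjusted p = 0.0249), and its wild-type difference over time was 0.59 (adjusted p = 0.0598). Over time in wild type limma and edgeR called 0 of the 10 phloem genes and DESeq2 called 1, with 1 at an unadjusted limma p under 0.05. For both lists the line-by-time count was also 0 at an unadjusted limma p under 0.05 and 0 by edgeR and DESeq2 after adjustment.

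Other cell types were followed through their markers beside these results. The summed level of 7 mature guard cell genes ran from 725 to 836 normalized counts in the inducible line at 12 h, 668 to 748 at 0 h, 717 to 975 in wild type at 12 h and 547 to 755 at 0 h, with none of the 7 passing by limma in any comparison. At an unadjusted limma p under 0.05 the count of guard cell genes was 3 over time in wild type, 1 over time in the inducible line, 1 between the lines at each time and 0 in the line-by-time difference. After adjustment edgeR called 0 of them in every comparison, and DESeq2 called 3 over time in wild type and 0 in the others. For 10 phloem genes the sums were 3692 to 5556 in the inducible line at 12 h, 3101 to 3793 at 0 h, 3154 to 4897 in wild type at 12 h and 3038 to 3870 at 0 h. Of 6 genes of the epidermal layer, CER1, an enzyme of wax synthesis, fell in the line-by-time difference (-1.90, limma adjusted p = 0.0491), and the sums were 16622 to 21676 in the inducible line at 12 h, 19233 to 25270 at 0 h, 19525 to 25774 in wild type at 12 h and 17415 to 27179 at 0 h. ATML1, whose promoter drives the transgene, was lower in the inducible line than in wild type at 12 h (log2 difference -0.57, limma adjusted p = 0.0293). In that comparison limma called 2 of the 6 epidermal genes, both lower, and edgeR and DESeq2 called 2 each. There 2 of the 6 had positive differences (median -0.45), and 5 had an unadjusted limma p under 0.05. In the line-by-time difference 2 of the 6 were positive as well (median -0.19). There 2 had an unadjusted limma p under 0.05, and edgeR and DESeq2 called 1 each. Of 5 mesophyll genes none passed in the line-by-time difference by limma, edgeR or DESeq2 (1 at an unadjusted limma p under 0.05), and LHCB2.1, a light-harvesting protein, fell over time in the inducible line (-0.71, limma adjusted p = 0.0250). It was also lower in the inducible line than in wild type at 12 h (-0.75, limma adjusted p = 0.0238), a comparison in which all 5 mesophyll genes had negative differences (median -0.35) and limma called 1 and DESeq2 called 2. The mesophyll sums were 200722 to 277463 in the inducible line at 12 h, 221620 to 303864 at 0 h, 236762 to 305198 in wild type at 12 h and 243550 to 350736 at 0 h. No gene of these marker lists averaged under 3 normalized counts over the 16 libraries, and the part of these cell types in the rise of BASL, POLAR and AT5G10890 was not tested.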

How the data were processed

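Polyadenylated RNA was sequenced from 16 libraries, 4 per group. The authors' deposited table holds a signal, reads per gene divided by 1 size factor per library: 100% of values were within 0.001 read of whole multiples of 1 step per column. Per the submitters' processing notes, DESeq2, HTSeq, SAMtools and TopHat were used on TAIR10, with no versions stated. The annotation release is not given in the sources used here; 32835 of 33602 genes matched RefSeq's table for TAIR10.1.

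The main test was limma 3.58.1 (R 4.3.3) (trend and robust options of its empirical Bayes step) on log2(normalized count + 1), with 1 fit of the 4 group means, 20756 genes and the Benjamini-Hochberg adjustment. Single values also had 2-sided exact permutation tests (SciPy 1.17.1). edgeR 4.0.16 and DESeq2 1.42.0 on recovered reads, other scalings, pseudocounts, no filter, a block, a lane term, single lanes and left-out libraries were alternatives. Ranking by transcript length was added after seeing the data. The limma, edgeR and DESeq2 fits were also run on simulated counts without a lane effect, and the other steps had no such test. Proteins were aligned with Biopython 1.88, over their whole length.

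All 8 members were named, with the 3 genes nearest to each that passed and, per list, up to 4 genes with the smallest adjusted p or any of the genes past the threshold. The members and lists were chosen with earlier results of these data known. Of the listed symbols 6 did not match the reference table and are given by locus only. Whether replicates are separate cultures is not stated in the labels; p-values then reflect the spread among libraries only, and part of it may be technical. Deviations from group means correlated between libraries of the same replicate number in 24 of 24 pairs (0.521 to 0.718), as they did between other libraries of the same lane (0.533 to 0.765), and were negative between lanes (-0.747 to -0.532). Deviations from a group mean cancel within the group, so the negative values between lanes follow from the positive ones within a lane. The pairing comes from the lanes that the labels give for the replicate numbers. The mean correlation was 0.633 for the same number and 0.651 for another number of the same lane. Of the 16 libraries 2 correlated best with their own number, so within a lane the numbers did not mark pairs.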

Additional observations from a re-analysis of the deposited data

Results flagged for a closer look

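The change over 12 h differed between the lines for 3 of the 8 genes by the test of the difference itself. The difference in log2 change, inducible line over wild type, was 2.42 for BASL (limma adjusted p = 0.0171), 1.82 for POLAR (adjusted p = 2.8e-04) and 2.13 for AT5G10890 (adjusted p = 0.0106), with n = 4 libraries per group. All 4 induced libraries were above all 12 others for each gene. No library of the 32 groups of 4 (8 genes in 4 groups) stood apart from the rest of its group by Dixon's test, where chance gives about 1 in 20.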

How the results depend on the processing

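The 8 genes were tested in 5 comparisons, each under 28 alternatives (27 for the line-by-time difference), of which 16 left out 1 library. Of these 40 results 28 kept their sign and 35 their side of the threshold throughout. The rises of BASL, POLAR and AT5G10890 over time in the inducible line and between the lines at 12 h passed under all 28 alternatives. In the line-by-time difference all 3 were lost in lane 1 alone, where 0 of the 8 genes passed, and AT5G10890 was also lost in lane 2 alone, each with 2 libraries per group. With the replicate block, and likewise with a lane term, 1 of the 8 genes, BRXL4, passed in wild type over time. Of all genes 13.3% passed there with the block and 14.5% with the lane term (0 of 8 and 4.72% without these terms). Leaving out single libraries gave 0 to 1 of the 8 there. The block changed no other call. The lane term also added BRX over time in the inducible line, where 4 of the 8 genes and 1921 of all tested genes passed (3 and 1063 without it). Over all genes the line-by-time difference had 106 calls in limma, 518 with the replicate block, 107 in edgeR and 388 in DESeq2.

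The sign turned only for values that passed nowhere. In the line-by-time difference BRXL1 was -0.78 in lane 2 alone, -0.0106 with a pseudocount of 5 and -0.0251 scaled by library total, and BRXL4 -0.0140 in lane 2 alone. Over time in the inducible line BRXL3 was -0.0008 in lane 1 alone. In wild type over time AT5G10890 was -0.16 and BRXL1 0.24 in lane 2 alone, and BRXL2 0.0019 in lane 1 alone. Between the lines at 12 h BRXL1 was -0.17 in lane 2 alone and BRXL4 0.0566 in lane 1 alone. At 0 h BRX was 0.0147 scaled by library total and BRXL3 -0.0763 in lane 2 alone. Leaving out 1 library gave BRXL1 -0.25 to 0.22 in the line-by-time difference, BASL -0.51 to 0.0488 and AT5G10890 -0.10 to 0.22 in wild type over time, BRXL4 -0.20 to 0.0593 between the lines at 12 h, and BASL -0.32 to 0.0701, BRX -0.12 to 0.0786 and BRXL3 -0.0154 to 0.10 between the lines at 0 h. The cause of these turns was not tested. Depth limits BRXL1 most, with 5 to 21 reads per library.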
